A study of Mus musculus with 4 samples.

Results

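CD8 T cells of the mouse submandibular gland were chosen by their own transcripts, in single-cell RNA sequencing of the stroma-enriched gland. The counts are of unique molecular identifiers (UMIs), the tags that let each captured RNA molecule be counted once. A cell was kept when it held at least 500 UMIs and 300 genes, with no more than 15% of its UMIs from the mitochondrial genome. It was taken as a CD8 T cell when it held at least 2 UMIs over Cd3d, Cd3e and Cd3g, which encode the invariant chains of the T cell receptor complex. It also had to hold at least 2 UMIs over Cd8a and Cd8b1, which encode the CD8 coreceptor. Cells with any UMI of Ncr1 or Klrb1c (natural killer receptors), Cd163l1 (a γδ T cell marker) or Cdh5 (endothelial VE-cadherin) were left out. This rule found 710 cells of the 39843 analysed. Since these 9 genes chose the cells, their levels are given only as a description, and they are in no count of genes that differed.

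The gland came from female C57BL6/J mice, whose age is not given in the labels. In the ligated group a metal clip had closed the main ducts for 14 days, and in the mock group the ducts were located but not clipped. All 4 libraries share this sex, strain and day, and in all of them epithelial and red blood cells had been depleted with EpCAM and Ter119 beads and dead cells removed before droplet capture. The protocols say that sublingual glands were harvested along with the submandibular glands. The ligated group is 1 library, and the mock group is 3 libraries named mock 1, mock 2 and mock 3 here. The comparison asks how CD8 T cells of the gland stroma differ after 14 days of duct obstruction. The p-values of that comparison rest on the spread between the mock libraries, and how animals were assigned to libraries is not stated, so that part of this spread may be technical.

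As background, CD8 T cells recognise peptides on MHC class I molecules and kill target cells with granules that hold perforin and granzymes, which are proteases. Naive cells express Ccr7, Lef1 and Tcf7 and circulate through lymphoid organs, whereas effector and memory cells express Ccl5, Nkg7 and granzymes. Memory cells that settle in tissues, salivary glands among them, can carry CD69 and the integrin CD103 (Itgae). Repeated stimulation is known to raise inhibitory receptors such as PD-1 (Pdcd1) and LAG-3 (Lag3), and interferons induce a broad set of antiviral genes.

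Receptor transcripts that the choice did not use were those of αβ T cells. Trac, the constant region of the T cell receptor α chain, was detected in 614 of the 710 cells and a β constant region (Trbc1 or Trbc2) in 708. Trdc, the δ constant region, was detected in 16 cells and Cd4 in 1. Both CD8 chains were detected in 631 cells, Cd8a alone in 22 and Cd8b1 alone in 57. Cd8a lies at chr6:71373427-71379173 (mm10, plus strand) and Cd8b1 at chr6:71322788-71337494 (plus strand). At the edge of the rule, 22 cells held exactly 2 Cd8 UMIs, and 34 cells with exactly 1 Cd8 UMI that met every other condition stood outside it. Exactly 2 Cd3 UMIs were held by 9 cells, and 2 cells with 1 Cd3 UMI and 11 with none met every other condition and stood outside.

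The CD8 T cells summed to 2411743 UMIs after ligation, and to 200038, 378627 and 380917 UMIs in the 3 mock libraries in order. Their median depth was 3795 UMIs per cell in the ligated library and 4875, 6400 and 5318 in the mock libraries. Mock 2 and mock 3 stood apart. Their files name a later version of the counting software (7.0.0) than those of the ligated library and mock 1 (6.0.1), and among the 755 tested genes with over 100 kb of intron their level exceeded that of mock 1 by a median of 1.09 on the log2 scale. In the 438 genes with up to 1 kb of intron the same median was −0.15. For some genes with long introns the ratio of the ligated library to mock 1 is therefore given too. Between 11 and 56 cell barcodes were shared by each pair of libraries, and 0 of the shared ones were CD8 T cells in both.

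Transcripts of other cell types were also unevenly spread and are given here because they touch most of the comparisons. At least 2 UMIs over 14 genes of B cells, macrophages, fibroblasts, endothelium, epithelium and CD4 T cells were held by 168 of the 550 ligated CD8 T cells (30.5%). The same held for 1 of 35 (2.86%), 6 of 55 (10.9%) and 6 of 70 (8.57%) in mock 1, 2 and 3. A list of 15 macrophage and dendritic cell genes summed to 2450 CPM (counts per 1000000 UMIs of the library) in the ligated CD8 T cells and to 440, 23.8 and 60.4 CPM in those of the mock libraries. None of the 15 was at 0 in the ligated cells, whereas 6, 12 and 9 were at 0 in mock 1, 2 and 3, among them Csf1r, Adgre1 and Fcgr1 in each. A list of 11 fibroblast genes summed to 3312 CPM against 50.0, 3212 and 743 CPM, with at least 2 UMIs in 59.5% of ligated cells against 5.71, 3.64 and 4.29%. The high fibroblast sum of mock 2 was thus held by few cells. A list of 13 natural killer (NK) and innate lymphoid genes summed to 756 CPM against 190, 285 and 339 CPM. The test of genes between ligated and mock CD8 T cells was therefore also made without the cells that held at least 2 UMIs of the 14 genes. The cells that remained are called marker-filtered. Shares of cells and the comparisons with other T cells and with NK cells were made on all CD8 T cells only.

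CD8 T cells were more frequent after ligation than in each of the mock libraries. They were 550 of 13304 analysed cells (4.13%, 95% exact Clopper-Pearson interval 3.80 to 4.49%) after ligation. They were 35 of 4589 (0.763%, interval 0.532 to 1.06%) in mock 1, 55 of 9251 (0.595%, 0.448 to 0.773%) in mock 2 and 70 of 12699 (0.551%, 0.430 to 0.696%) in mock 3. The ligated share was 6.50 times the mock mean of 0.636% ± 0.112 (SD, n = 3) and 5.42 times that of mock 1, and its interval overlapped none of the others. With every cell thinned to 1500 UMIs before the rule was applied, the ratio to the mock mean was 8.20. The intervals cover counting error only, and with 1 library against 3 the exact permutation test cannot give a p below 0.25, so the difference has no replicate check on the ligated side.

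Among cells with at least 2 Cd3 UMIs, CD8 T cells were also a larger share after ligation. They were 21.5% (exact interval 19.9 to 23.1%) of the 2561 such cells of the ligated library, against 12.1, 11.1 and 9.92% of the 289, 494 and 706 such cells of mock 1, 2 and 3. The ratio was 1.94 to the mock mean of 11.1% ± 1.10 (SD, n = 3) and 1.77 to mock 1. After thinning the shares were 31.0% and 12.9% ± 1.84 (SD, n = 3). The plot of shares by library shows both measures.

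**Figure D1:**
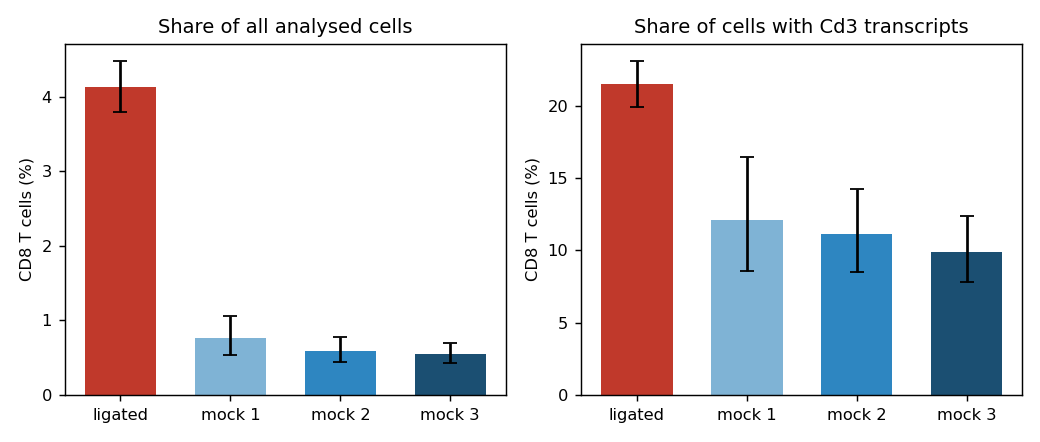
Share of CD8 T cells in percent, on axes that start at 0, among all analysed cells and among cells with Cd3 transcripts. Each library is 1 value with its exact 95% binomial interval, which covers counting error only. The ligated library stands at 4.13 and 21.5%, above the highest mock values of 0.763 and 12.1%.

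Differences in expression were tested on the summed counts of all genes, with edgeR's quasi-likelihood test and Benjamini-Hochberg adjustment. Over all CD8 T cells 10 of 5964 genes (0.168%) passed an adjusted p of 0.05, all 10 higher in the ligated library, and none lower. Before adjustment, 170 genes were higher and 302 lower at a p under 0.05, and DESeq2 called 8 genes, 5 higher and 3 lower. The 10 genes were Gzma, Tyrobp, C1qa, C1qb, C1qc, Ms4a7, Cst3, Spp1, Mgp and Thbs4. Of these, C1qa, C1qb and C1qc (complement C1q chains), Ms4a7 and Cst3 are known from macrophages, Mgp (matrix Gla protein) and Thbs4 (thrombospondin) from stroma, and Spp1 encodes osteopontin. Tyrobp, an adaptor of NK receptors, had over 10 times the level in another cell class of these libraries, and is called out-of-class for that reason.

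C1qa stood at 298 CPM in the ligated library and at 11.1, 0 and 2.78 CPM in mock 1, 2 and 3. Its log2 fold change was 6.43 (SE 0.615, adjusted p = 0.00205), and it was detected in 18.5% of ligated CD8 T cells. In NK cells of the same libraries C1qa stood at 207 CPM against 2.55, 27.0 and 17.4 CPM, and Mgp, with a log2 fold change of 3.80 in CD8 T cells, stood at 3.74 in NK cells. Thbs4 had 185 UMIs in ligated CD8 T cells and 0 in the mock libraries, which makes it at least 24.6-fold higher, against a floor of 3 counts over the mock group. For Ms4a7, with 155 UMIs against 0, the bound was at least 20.7-fold higher. C1qa, C1qb and C1qc are themselves in the macrophage list, whose sum was highest in the ligated library, and the fibroblast sum was nearly as high in mock 2 as after ligation. The part of other cells' transcripts in these genes was not tested beyond the marker-filtered fit.

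Among marker-filtered cells 63 of 5263 genes (1.2%) passed, 27 higher and 36 lower in the ligated library. DESeq2 called 9 in these cells, 3 higher and 6 lower. Of the 27 higher genes 24 were not out-of-class, and all 27 were also higher than in mock 1. They held genes of killing and recruitment (Gzma, Gzmk, Nkg7, Ccl5), inhibitory receptors (Pdcd1, Lag3), interferon-stimulated genes (Isg15, Irf7, Ifi27l2a, Ifitm1, Ly6a) and a T cell receptor γ segment (Trgv2). They also held Cd74, H2-Aa, H2-Ab1, H2-Eb1, Apoe, Apod, Dcn, Sparc and Mgp, which are best known from antigen-presenting and stromal cells. H2-Aa, for example, stood at 117 CPM against 0, 0 and 6.25 CPM in marker-filtered cells. Of the 36 lower genes 23 had over 100 kb of intron and 29 were more than 2-fold higher in mock 2 and 3 than in mock 1, and 25 were lower than in mock 1 as well. The lower genes that also stood below mock 1 included the ribosomal protein gene Rpl35, at 864 CPM against 1891, 2072 and 1963 CPM, and mt-Atp8. Also lower were Gm42418, at 6032 CPM against 16716, 14808 and 12294 CPM, and AY036118, at 151 CPM against 1925, 637 and 631 CPM. These 2 lie at one ribosomal RNA locus on chromosome 17, and the part of RNA quality in the comparison was not tested. The counts rested on single libraries, since without mock 1 and without mock 2 the fit over all CD8 T cells called 826 and 0 genes, and without mock 3 it called 71.

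Granule genes are the killing machinery, and Gzma, which encodes granzyme A, was the one that passed in both fits. Gzma lies at chr13:113093825-113100981 (mm10, minus strand). It stood at 220 CPM in ligated CD8 T cells and at 11.1, 10.4 and 2.78 CPM in mock 1, 2 and 3. Its ligated value was thus above all 3 mock values, as for 23% of all genes tested. The log2 fold change was 4.82 (SE 0.502, adjusted p = 0.00205) over all cells and 4.19 (SE 0.510, adjusted p = 0.000162) in marker-filtered cells. Gzma passed under 18 of the 19 alternative settings and did not pass without mock 2, where no gene passed. Its UMIs were held by few cells. It was detected in 9.64% of ligated cells, and the top cell held 101 of its 508 UMIs (19.9%). With cells thinned to 1500 UMIs it was detected in 37 of 538 ligated cells (6.88%) and in 1 of 34, 1 of 55 and 0 of 70 mock cells, and the 0 of 70 allows a share of up to 5.13% (exact interval). The background was also higher in the ligated library, since Gzma was detected in 1.98% of ligated endothelial cells and in 0.260, 0.0469 and 0.0768% of those of mock 1, 2 and 3. T cells without Cd8 gave 1.64% after ligation and 2.33, 0 and 1.02% in the mock libraries. In NK cells Gzma stood at 745 CPM against 891, 694 and 732 CPM, within the mock range.

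The other granzymes differed in how they stood. Gzmk, which encodes granzyme K and lies near Gzma on chromosome 13 at chr13:113171608-113225908, stood at 258 CPM against 133, 88.6 and 94.4 CPM. Its log2 fold change was 1.33 (SE 0.342) with an adjusted p of 0.226 over all cells, and 1.39 (SE 0.337) with an adjusted p of 0.0457 in marker-filtered cells. At equal depth Gzmk was detected in 30.7% of ligated CD8 T cells (exact interval 26.8 to 34.8%) and in 17.6, 7.27 and 11.4% of mock CD8 T cells. NK cells, taken as a class that lacks Gzmk, gave 0.158% in the ligated library and 0.204, 0.133 and 0.182% in the mock libraries, all at 1500 UMIs. Endothelial cells gave 0.0721% after ligation and 0, 1.29 and 1.38% in mock 1, 2 and 3. T cells without Cd8 had Gzmk in 3.69% after ligation and in 0, 0 and 1.02% in the mock libraries. Gzmb (granzyme B) stood at 205 CPM against 27.6, 75.6 and 350 CPM, inside the mock range. The top cell of mock 3 held 38 of its 126 UMIs (30.2%). At equal depth Gzmb was detected in 19.1% of ligated CD8 T cells and in 0, 10.9 and 15.7% of mock ones. The exact intervals of the ligated library (15.9 to 22.7%) and mock 3 (8.11 to 26.4%) overlapped. Endothelial cells gave 4.18% after ligation and 0.260, 0.0704 and 0.192% in the mock libraries. Gzmc stood at 83.9 CPM against 0, 7.82 and 13.9 CPM, was out-of-class, and stood at 4239 CPM in ligated NK cells. Prf1, which encodes perforin, stood at 75.2 CPM against 77.4, 39.1 and 25.0 CPM, also inside the mock range. Gzmm had 10 UMIs in ligated cells and 2, 7 and 0 in the mock libraries, too few to be tested.

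Nkg7, which encodes a granule membrane protein, stood at 3180 CPM against 1763, 1408 and 1643 CPM, with an adjusted p of 0.271 over all cells. In marker-filtered cells its log2 fold change was 1.04 (SE 0.244, adjusted p = 0.0382). Endothelial cells at equal depth had Nkg7 in 5.05% after ligation and in 0.477, 0.164 and 0.230% in the mock libraries in order. The part of this background in the Nkg7 difference was not tested. Of 18 tested genes of the granule list, 10 stood above all 3 mock libraries and 1, Rab27a, below them. Over all genes tested 23% stood above and 20.3% below the 3 mock libraries. The median log2 fold change of the list was 0.45 and its median over mock 1 was 0.56, against −0.03 and 0.04 for all genes. Gzma alone of these 18 genes passed over all cells, and Gzma, Gzmk, Gzmc and Nkg7 passed in marker-filtered cells. The genes that did not pass included Ctsd, a lysosomal protease gene also abundant in macrophages, at 581 CPM against 354, 245 and 225 CPM.

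**Figure D2:**
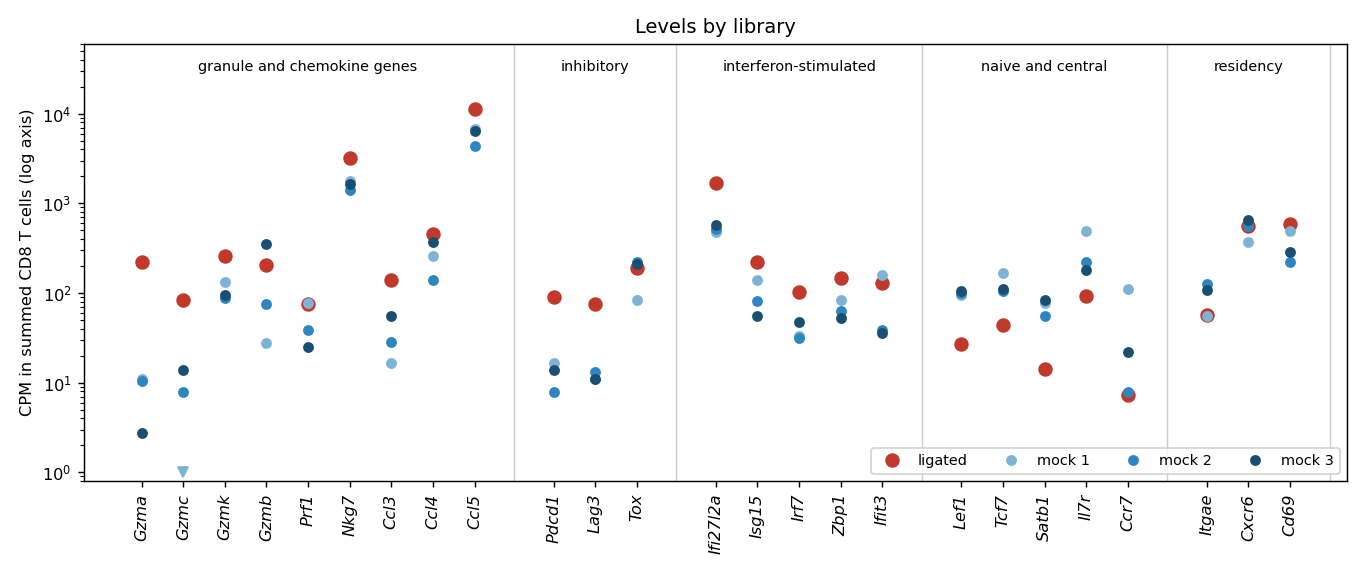
Level of named genes in the summed CD8 T cells of each library, in CPM on a log axis, with values below 1 CPM drawn as triangles at 1. For Gzma, Pdcd1 and Lag3 the ligated library lies above the 3 mock libraries (220, 89.9 and 75.2 CPM), and for Lef1 and Tcf7 below them (27.2 and 44.5 CPM).

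The chemokine Ccl5, which recruits leukocytes, was the most abundant of the named genes. It stood at 11412 CPM after ligation and at 6716, 4383 and 6490 CPM in mock 1, 2 and 3. Its log2 fold change was 0.96 (SE 0.267) with an adjusted p of 0.271 over all cells, and 0.99 (SE 0.221) with an adjusted p of 0.0291 in marker-filtered cells. The background was also higher after ligation. At equal depth 21.3% of ligated endothelial cells had Ccl5, against 1.17, 0.751 and 0.710% in the mock libraries in order. The part of this background in the Ccl5 difference was not tested. Ccl3, another inflammatory chemokine, stood at 141 CPM against 16.6, 28.7 and 55.5 CPM, above all 3 mock libraries, with an adjusted p of 0.199 over all cells and 0.122 in marker-filtered cells. The top ligated cell held 74 of the 326 Ccl3 UMIs (22.7%), and the mock libraries had 3, 11 and 20 Ccl3 UMIs. Ccl4 stood at 457 CPM against 260, 138 and 369 CPM. The top ligated cell held 196 of the 1057 Ccl4 UMIs (18.5%). In mock 1, 2 and 3 the top cell held 57.4, 11.3 and 33.1% of them. The cytokines were mixed. Lta, which encodes lymphotoxin α, stood at 57.9 CPM against 33.2, 20.9 and 33.3 CPM, above all 3 mock libraries with an adjusted p of 0.652. Ifng stood at 102 CPM against 232, 49.5 and 69.4 CPM, inside the mock range. The mock 1 level of Ifng rested largely on 1 cell, which held 25 of its 42 UMIs (59.5%). Xcl1, which attracts dendritic cells, stood at 490 CPM against 276, 542 and 933 CPM, also inside the mock range. The top cell of mock 3 held 90 of its 336 Xcl1 UMIs (26.8%). Tnf stood at 92.1 CPM against 105, 198 and 211 CPM, below all 3, with an adjusted p of 0.624. Of 12 tested genes of this list 6 stood above and 3 below the mock libraries, against 23% and 20.3% of all genes. Ccl5 alone passed, in marker-filtered cells.

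Pdcd1 and Lag3 were the inhibitory receptors that stood highest against the mock libraries. Pdcd1 lies at chr1:94038305-94052553 (mm10, minus strand) and stood at 89.9 CPM against 16.6, 7.82 and 13.9 CPM. The log2 fold change of Pdcd1 was 2.88 (SE 0.511) with an adjusted p of 0.0687 over all cells, and 2.79 (SE 0.493) with an adjusted p of 0.00674 in marker-filtered cells. It passed under 8 of 19 alternative settings and was higher in the ligated library under all 19. Lag3, at chr6:124904361-124911705, stood at 75.2 CPM against 11.1, 13.0 and 11.1 CPM. The log2 fold change of Lag3 was 2.65 (SE 0.508) with an adjusted p of 0.0819, and 2.48 (SE 0.553) with an adjusted p of 0.0291 in marker-filtered cells. Lag3 passed under 5 of the 19 settings. For both genes the ligated value lay above all 3 mock values, as it did for 23% of all genes tested.

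At 1500 UMIs Pdcd1 was detected in 61 of 538 ligated CD8 T cells (11.3%, exact interval 8.78 to 14.3%) and in 2.94, 0 and 5.71% of mock cells, with 0.211% in ligated NK cells. The 0 of 55 cells in mock 2 allows a share of up to 6.49% (exact interval). Tox, a transcription factor of chronically stimulated T cells, stood at 189 CPM against 82.9, 224 and 211 CPM. Tox holds 298 kb of intron, and its ratio to mock 1 was 1.14 on the log2 scale. In the ligated library Tox was detected in 24 of the 61 cells with Pdcd1 (39.3%) and in 18.2% of those without. Cells of 1 library share their source, so this is a description. Havcr2, which encodes TIM-3, had 30 UMIs against 0, 0 and 0, Ctla4 38 against 3, 4 and 2, and Tigit 7 against 1, 6 and 2, and they were too low to be tested. Of 12 tested genes of the list 4 stood above and 2 below the mock libraries, near the shares over all genes, with a median log2 fold change of −0.01 and of 0.63 over mock 1. None of the 12 passed over all cells.

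Interferon-stimulated genes stood high as a group. Of 40 tested list members 23 were above all 3 mock libraries and 1, Irgm1, was below, against 23% and 20.3% of all genes. None passed over all cells, where 11 were higher at an unadjusted p under 0.05, and Isg15, Irf7 and Ifi27l2a passed in marker-filtered cells. The median log2 fold change was 0.64 over all cells, 0.72 in marker-filtered cells and 0.31 over mock 1 alone. Ifi27l2a, an interferon-induced mitochondrial protein gene, stood at 1672 CPM against 481, 521 and 569 CPM. The log2 fold change of Ifi27l2a was 1.67 (SE 0.297) with an adjusted p of 0.0687, and 2.05 (SE 0.320) with an adjusted p of 0.00169 in marker-filtered cells. Isg15, a ubiquitin-like modifier, stood at 222 CPM against 138, 80.8 and 55.5 CPM, and at an adjusted p of 0.349 and, in marker-filtered cells, 0.0308. Irf7, a transcription factor that amplifies type I interferon, stood at 102 CPM against 33.2, 31.3 and 47.2 CPM, and at an adjusted p of 0.293 and 0.0417.

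The group was not uniform, and for some members mock 1 stood above the ligated library. Ifit3 and Ifit1, which encode antiviral RNA-binding proteins, stood at 131 and 50.6 CPM after ligation and at 160 and 66.3 CPM in mock 1. In mock 2 and 3 they stood lower, at 39.1 and 36.1 CPM for Ifit3 and at 31.3 and 27.8 CPM for Ifit1. The mock 1 level of Ifit3 rested largely on 1 cell, which held 19 of its 29 UMIs (65.5%). At equal depth Ifit3 was detected in 11.9% of ligated cells and in 5.88, 3.64 and 4.29% in mock 1, 2 and 3. The exact intervals of the ligated library (9.28 to 14.9%) and mock 1 (0.720 to 19.7%) overlapped. Zbp1, a sensor of viral nucleic acid, stood at 146 CPM against 82.9, 62.6 and 52.7 CPM. Ly6a (Sca-1), which interferon also induces, stood at 808 CPM against 448, 318 and 275 CPM and passed in marker-filtered cells with an adjusted p of 0.0271.

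Promoters of this group are shown because the transcription factors that interferons activate bind short repeated motifs there. A minimal form of the interferon-stimulated response element, GAAA followed by any 2 bases and GAAA again, was searched for on both strands of RefSeq promoters (GRCm38.p6, 250 bases before to 50 after each start). Of the 27025 genes with such a promoter, 3.99% held a match, as did 23 of the 34 list members found there (67.6%). Among the members above the mock range it was 9 of 16 (56.3%). The stretches below are 60 bases upstream of the start, written along the gene's own strand from 5′ to 3′, with each match in capitals. A match on the other strand reads as TTTC, any 2 bases and TTTC, and overlapping matches run together. Isg15 held 3 overlapping matches on its own strand, Bst2 held 2, Igtp 1, and Gbp2 and Gzma 1 each on the other strand. Gzma is shown as the granule gene that passed, and 4 of 17 genes of the granule list (23.5%) held a match.
Isg15 (chr4:156200852-156200911, minus strand): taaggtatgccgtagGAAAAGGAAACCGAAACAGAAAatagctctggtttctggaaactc
Bst2 (chr8:71537558-71537617, minus strand): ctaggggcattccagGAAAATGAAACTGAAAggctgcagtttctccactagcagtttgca
Igtp (chr11:58199496-58199555, plus strand): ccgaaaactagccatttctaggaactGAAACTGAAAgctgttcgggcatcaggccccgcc
Gbp2 (chr3:142620589-142620648, plus strand): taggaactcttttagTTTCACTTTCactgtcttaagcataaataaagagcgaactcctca
Gzma (chr13:113101034-113101093, minus strand): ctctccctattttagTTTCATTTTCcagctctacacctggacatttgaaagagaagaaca

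Beside these sequences stand the levels of their genes. Bst2, which encodes tetherin, stood at 303 CPM against 182, 175 and 222 CPM. Igtp and Gbp2, GTPases that interferon γ induces, stood at 82.1 CPM against 60.8, 33.9 and 27.8 CPM and at 63.6 CPM against 27.6, 39.1 and 25.0 CPM. All of them lay above the 3 mock libraries, and none passed in either fit, with adjusted p-values over all cells of 0.721, 0.585 and 0.616. Ifit1 and Ifit3, which lay inside the mock range, held 2 matches each. Irf7 held none in its window.

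The interferon-stimulated transcripts were concentrated in some cells. With each cell thinned to 1500 UMIs, the list summed to a median of 6 UMIs per ligated cell and of 4 per cell in each mock library. At least 10 UMIs were held by 155 of 538 ligated CD8 T cells (28.8%, exact interval 25.0 to 32.8%), against 17.6% in mock 1, 5.45% in mock 2 and 7.14% in mock 3. The intervals of the ligated library and mock 1 overlapped, since mock 1 rests on 34 cells. Among NK cells the same count was 3.49% after ligation and 2.86, 2.39 and 2.09% in the mock libraries. In the ligated library Ifit3 was detected in 37.9% of the 95 cells with Isg15 and in 6.32% of the others. Isg15 itself was detected in 17.7% of ligated CD8 T cells and 11.4 to 12.7% of mock ones, and endothelial cells, at 18.8 to 24.7%, also express it.

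**Figure D3:**
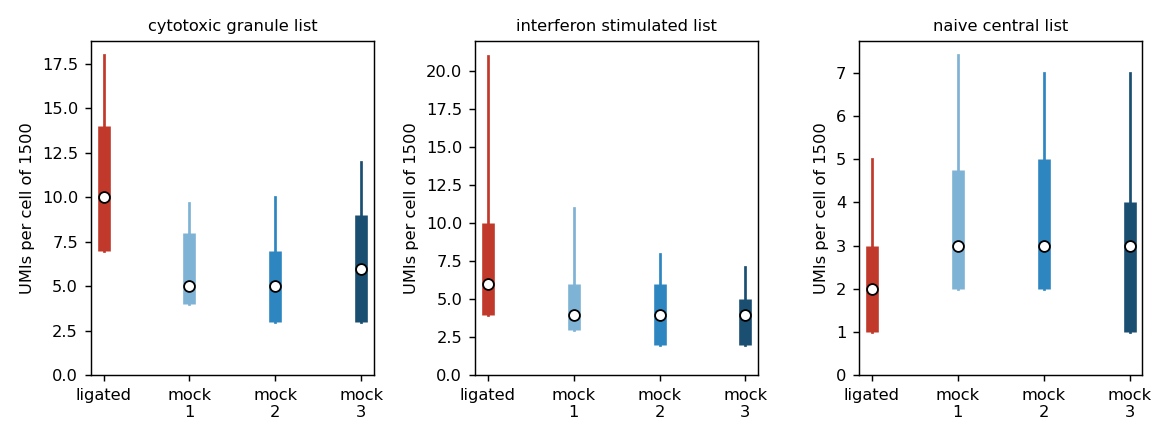
UMIs per CD8 T cell over the granule, interferon-stimulated and naive and central memory lists after thinning each cell to 1500 UMIs, by library, with a white dot at the median, a thick bar for the quartiles and a thin line up to the 90th percentile. The ligated library has the highest median for the granule list (10 against 5, 5 and 6) and the interferon-stimulated list (6 against 4, 4 and 4), and the lowest for the naive and central memory list (2 against 3, 3 and 3).

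Genes of naive and central memory cells stood low after ligation. Of 19 tested members of this list 12 were below all 3 mock libraries and none was above, against 20.3% and 23% of all genes. The median log2 fold change was −0.92, and −0.67 over mock 1 alone. None passed over all cells, where 8 were lower at an unadjusted p under 0.05. In marker-filtered cells Bach2 passed, but it stood at 9.08 CPM against 11.1, 83.4 and 125 CPM over all cells, only −0.19 from mock 1 on the log2 scale.

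Among the transcription factor genes of this group, Lef1, Tcf7 and Satb1 lay below every mock library. Lef1, at chr3:131110471-131224356 (mm10, plus strand), stood at 27.2 CPM against 94.0, 99.1 and 105 CPM, and its log2 fold change was −1.87 (SE 0.421, adjusted p = 0.172). Lef1 has 105 kb of intron, and its ratio to mock 1 was −1.62 on the log2 scale. Tcf7 stood at 44.5 CPM against 166, 104 and 111 CPM (adjusted p = 0.271). Satb1, a chromatin organiser, stood at 14.3 CPM against 77.4, 54.8 and 83.3 CPM, and its log2 fold change was −2.31 (SE 0.504, adjusted p = 0.145). None of the 3 passed in marker-filtered cells (adjusted p = 0.0697 for Lef1, 0.194 for Tcf7 and 0.0813 for Satb1). They were also lower in ligated NK cells, with log2 fold changes of −1.47 for Lef1, −2.08 for Tcf7 and −0.61 for Satb1. Over the whole list the median in NK cells was −0.16.

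Receptors of this group were also low. Il7r, the receptor of the survival cytokine interleukin 7, stood at 92.5 CPM against 492, 224 and 180 CPM, and was detected at equal depth in 9.48% of ligated cells against 35.3, 25.5 and 14.3%. S1pr1, which guides exit from tissues, stood at 35.4 CPM against 111, 59.97 and 63.8 CPM, but it was out-of-class, being abundant in endothelial cells. Ccr7 stood at 7.35 CPM against 111, 7.82 and 22.2 CPM. For Ccr7 mock 1 was the highest library, and the ligated value lay close to that of mock 2. Klf2, which maintains S1pr1, stood at 178 CPM against 442, 107 and 200 CPM, inside the mock range.

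Sorted by effector genes, at least 83.6% of the cells in every library lay in the effector range. It was defined as at least 2 UMIs over Ccl5, Nkg7, Gzmk, Gzma and Gzmb at 1500 UMIs, and is a range of a score, not a cell type. It held 520 of 538 ligated cells (96.7%, exact interval 94.8 to 98.0%), and 94.1, 83.6 and 85.7% in mock 1, 2 and 3. Endothelial cells, which should lack these genes, reached the range in 5.52% of cases in the ligated library and in 0.0867, 0.141 and 0.230% in the mock libraries, so the background was higher after ligation. Among T cells without Cd8 it held 61.1% after ligation and 27.9, 33.0 and 42.9% in mock 1, 2 and 3. The part of the background in the CD8 T cell shares was not tested. Exactly 2 effector UMIs, the edge of the range, were held by 7 ligated cells and by 4, 4 and 1 mock cells, and exactly 1, just outside it, by 12 and by 1, 3 and 1.

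Genes of tissue residency showed no common direction. Of 13 tested, 4 were above and 4 below the mock libraries (30.8% each), against 23% and 20.3% of all genes. Their median log2 fold change was 0.06. Itgae stood at 57.1 CPM against 55.3, 128 and 108 CPM, and Cxcr6, a chemokine receptor of tissue T cells, at 553 CPM against 370, 561 and 650 CPM. Cd69 stood at 588 CPM against 492, 222 and 289 CPM, above all 3 with an adjusted p of 0.703. Within the ligated library Itgae was detected in 3 of the 165 cells with Gzmk (1.82%) and in 9.92% of the cells without it. In mock 1, 2 and 3 the cells with Gzmk were 6, 4 and 8, of which 0, 0 and 1 had Itgae, too few to set beside the cells without it.

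Surface receptors and lineage factors are given next. Cd44, a memory marker, stood at 48.4 CPM against 111, 70.4 and 86.1 CPM, below all 3 with an adjusted p of 0.695. Ly6c2 stood at 1001 CPM against 1122, 657 and 569 CPM, and Cxcr3, a receptor of interferon-induced chemokines, at 297 CPM against 243, 162 and 197 CPM. Il18r1, through which interleukin 18 acts, stood at 34.2 CPM against 144, 151 and 80.5 CPM, with a log2 fold change of −1.86 (SE 0.456, adjusted p = 0.212). The lectin receptors Klrk1 (NKG2D) and Klrd1 stood at 175 and 185 CPM, each below all 3 mock libraries. Klrg1 had 4 UMIs against 0, 1 and 0. Eomes and Tbx21, the T-box factors of effector cells, stood at 56.6 and 53.2 CPM against 41.6 to 77.4 and 33.2 to 52.1 CPM. Cx3cr1 stood at 37.2 CPM against 66.3, 26.1 and 5.55 CPM, or −0.76 from mock 1 on the log2 scale.

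Among transcripts of the T cell receptor, a γ chain segment stood out. Trac stood at 614 CPM against 807, 519 and 550 CPM, inside the mock range, and Themis, a signalling protein of αβ T cells, at 119 CPM against 138, 464 and 430 CPM, or −0.21 from mock 1 on the log2 scale. Trgv2, a γ chain variable segment at chr13:19336573-19337167, stood at 191 CPM against 22.1, 62.6 and 47.2 CPM. The log2 fold change of Trgv2 was 2.02 (SE 0.414, adjusted p = 0.104), and 1.97 (SE 0.411, adjusted p = 0.0203) in marker-filtered cells. At equal depth 98 of 538 ligated cells (18.2%) had Trgv2, against 2.94, 5.45 and 7.14%, and NK cells gave 0.158% in the ligated library. T cells without Cd8 went in the same direction, with Trgv2 in 9.43% after ligation and in 2.33, 3.41 and 6.12% in mock 1, 2 and 3. The γ constant segment Tcrg-C2 was detected in 42.9% of the ligated cells with Trgv2 and in 8.18% of those without, and Trdc in 1 of the 98. Tcrg-C2 stood at 121 CPM against 5.53, 96.5 and 66.6 CPM.

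A β chain variable segment (Trbv) was detected in 77 of 550 ligated cells (14.0%) and in 34.3, 32.7 and 18.6% of mock cells, without thinning. Among the 75 ligated cells with exactly 1 such segment, Trbv1 was seen in 28 (37.3%). In mock 1, 2 and 3 Trbv1 was seen in 1 of 12, 2 of 17 and 0 of 10 such cells. The highest counts there were 2 of 12 for Trbv3 in mock 1, 3 of 17 for both Trbv12-2 and Trbv29 in mock 2, and 4 of 10 for Trbv16 in mock 3. Most cells carried no variable segment, so these shares describe the cells in which one was captured.

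Dividing cells did not separate the groups. Mki67, a marker of cycling cells, stood at 58.4 CPM against 22.1, 46.9 and 16.7 CPM (adjusted p = 0.744). Of 18 tested proliferation genes 5 were above and 1 below the mock libraries (27.8 and 5.56%). The shares over all genes tested, 23% above and 20.3% below, are the background for this list and for those that follow. The Gimap genes, GTPases of lymphocyte survival, stood above the mock libraries in 6 of 8 cases with a median log2 fold change of 0.25. Glycolysis genes did so in 8 of 16 cases with a median of 0.20, Gapdh standing at 1053 CPM against 746, 667 and 686 CPM. Immediate early and stress genes were above in 13 of 23 cases, with a median of 0.51 over all mock libraries and of 0.02 over mock 1. Genes of MHC class I presentation were above in 7 of 18 cases, with a median of 0.18. T cell receptor signalling genes were above in 8 and below in 8 of 28 cases (28.6% each). None of the genes in these 6 lists passed in either fit.

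**Figure D4:**
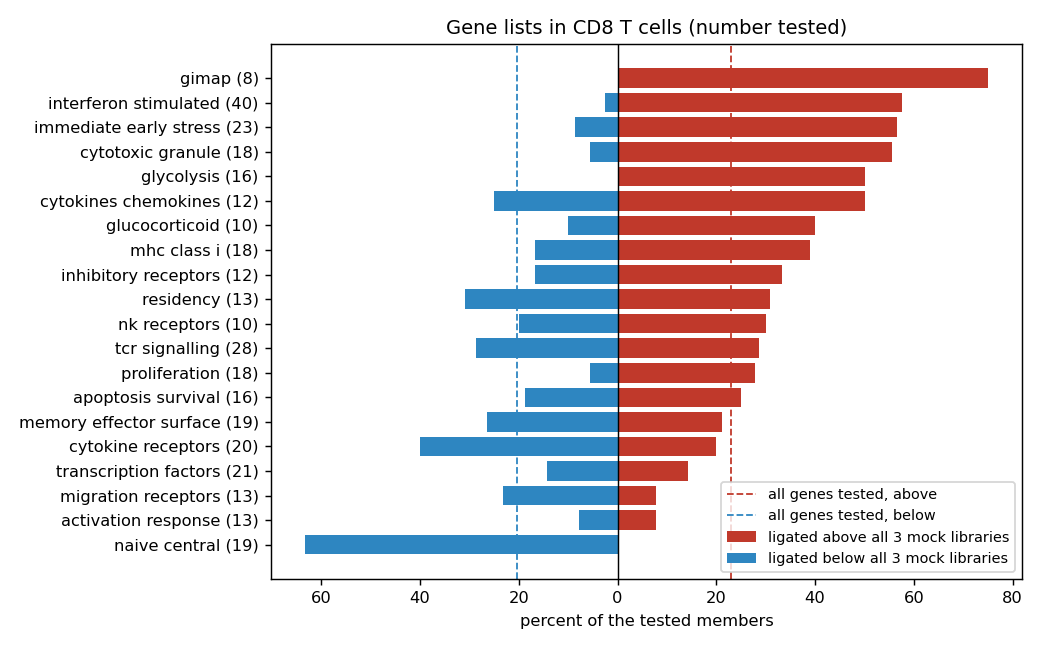
Percent of the tested genes of each list whose CPM in ligated CD8 T cells lay above all 3 mock libraries (right of 0) or below all 3 (left of 0), with the number tested in brackets and dashed lines for all genes tested (23 and 20.3%). The naive and central memory list has 12 of 19 below and none above, and the interferon-stimulated list 23 of 40 above and 1 below.

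Against T cells with no Cd8 UMI from the same libraries, CD8 T cells were set apart by killing and chemokine genes in all 4 libraries. There were 496 such T cells, of which 262 came from the ligated gland and 43, 88 and 103 from mock 1, 2 and 3. With the library as a block 154 of 5007 genes (3.08%) passed, 76 higher and 78 lower in CD8 T cells. Gzmk was named among the markers of this class when it was proposed. It stood at 267, 138, 95.3 and 98.0 CPM in CD8 T cells of the ligated library and mock 1, 2 and 3, and at 23.4, 5.71, 16.1 and 8.45 CPM in the other T cells (log2 difference 3.39, SE 0.227, adjusted p = 1.93e-06). Ccl5 was higher by 2.20 on the log2 scale (SE 0.0775, adjusted p = 4.46e-09), Nkg7 by 1.90, Eomes by 2.79 and Fasl, which encodes a death ligand, by 1.58. Each of these was higher in CD8 T cells in 4 of 4 libraries.

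Genes lower in CD8 T cells than in these T cells included several known from helper T cells. Cd4 fell by 7.35 on the log2 scale and stood between 71.0 and 117 CPM in the other T cells, whose choice by the absence of Cd8 favours it. Tnfrsf4 (OX40) fell by 4.32, Cd40lg by 3.21 and Maf by 2.51, each in 4 of 4 libraries, and the neuropeptide receptor subunit gene Ramp1 fell by 2.38. Of 15 tested granule genes 6 were higher and 1 lower, and of 20 immediate early and stress genes none was higher and 6 were lower. Over all 5007 genes 76 were higher and 78 lower. None of 9 inhibitory receptor genes passed, nor did any of 15 proliferation genes. Since 3.08% of all genes passed, none in lists this short is near the share over all genes. Without mock 2 the count of genes that passed was 51, and without mock 1 it was 77.

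Against NK cells, receptor genes were among those that differed. There were 4269 NK cells, 1917 of them in the ligated library. With the library as a block 1373 of 10082 genes (13.6%) passed, 622 higher and 751 lower in CD8 T cells. Themis, at 119, 134, 452 and 422 CPM in CD8 T cells and at most 0.415 CPM in NK cells, was higher by 10.6 on the log2 scale, and Cd5, an inhibitor of T cell receptor signals, by 9.05. Themis, like Gzmk, was named among the markers of this class when it was proposed. The NK receptor genes Klra4, Klra8 and Klrb1b fell by 6.43, 5.85 and 6.25, and Gzmc fell by 6.39. Of 28 T cell receptor signalling genes 22 were higher and 1 lower, and of 20 NK receptor genes 1 was higher and 17 were lower. NK cells were chosen by UMIs of Ncr1 and Klrb1c with none of the Cd3 and Cd8 genes, and CD8 T cells by the reverse. These rules favour both directions, so the counts for receptor genes are a description of the classes.

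Other lists also separated CD8 T cells from NK cells, and whether they did so by state or by lineage was not tested. Of 44 interferon-stimulated genes 27 were higher in CD8 T cells and none lower, with a median log2 difference of 0.91. Of 20 naive and central memory genes 13 were higher and none lower, and of 24 proliferation genes 11 were higher and none lower. Granule genes were lower in 10 and higher in 1 of 18 cases, the exception being Gzmk, and residency genes lower in 8 and higher in 2 of 15 cases. Over all 10082 genes 622 were higher and 751 lower (13.6% together), and the median difference was −0.04.

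The difference between ligated and mock libraries was itself compared between CD8 T cells and NK cells with a class by surgery term, which passed for 117 of 12066 genes (0.97%). DESeq2 called 5 for the same term. For Gzma the term was 4.94 (SE 0.393, adjusted p = 2.46e-32), with a log2 fold change of 4.82 in CD8 T cells and −0.05 in NK cells. Ccl3 and Ccl4 were higher than the mock mean in ligated CD8 T cells and lower in ligated NK cells, where Ccl3 stood at 161 CPM against 243, 203 and 208 CPM. The term was 2.45 for Ccl3 and 1.79 for Ccl4. Nkg7 differed by 0.87 (adjusted p = 0.00501). Pdcd1, Lag3, Isg15 and Ifi27l2a did not pass this term, with adjusted p-values of 1, 0.312, 0.292 and 1, so their change is not shown to differ between the classes.

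**Figure D5:**
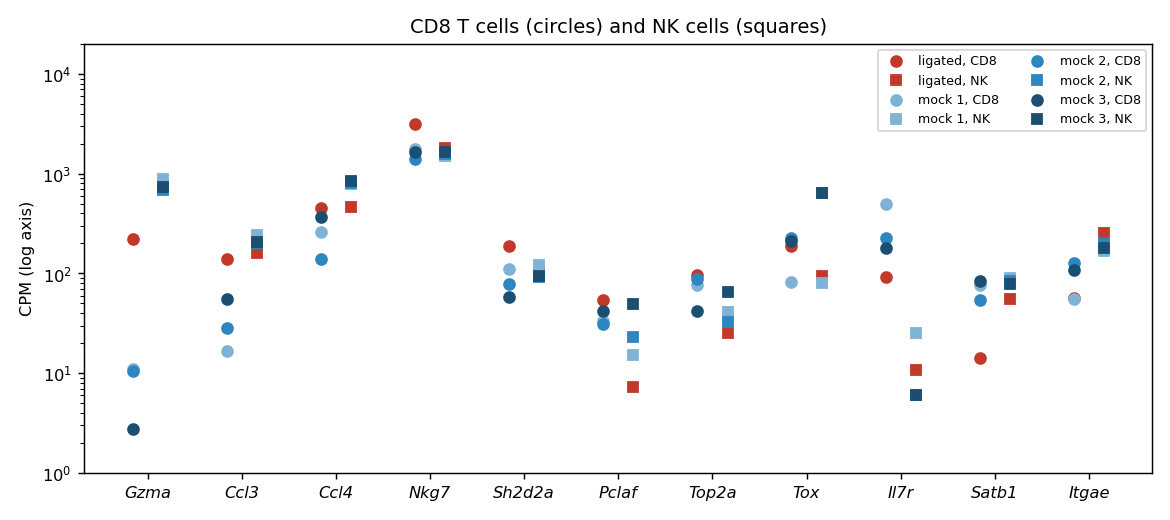
Level in CPM (log axis, values below 1 drawn at 1) of 11 genes that passed the class by surgery term, in summed CD8 T cells (circles) and NK cells (squares) of each library. For Gzma the ligated circle lies at 220 CPM, far above the mock circles, whereas the NK squares of all 4 libraries lie between 694 and 891 CPM, and for Tox the NK squares of mock 2 and mock 3 stand apart at 635 CPM.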

How the data were processed

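The values are counts: raw UMI counts per gene and cell barcode, deposited by the authors as 1 sparse matrix per library. Per the file headers Cell Ranger 6.0.1 (ligated, mock 1) and 7.0.0 (mock 2, mock 3) wrote them, whereas the submitters' processing notes name version 7.0.1, with the mm10 build. For intronic reads, the counting setting was not given in the sources used. The 30406 gene IDs in all 4 feature lists were used.

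Counts of the CD8 T cells were summed per library and tested with edgeR 4.0.16 (R 4.3.3): TMM, filterByExpr, quasi-likelihood F test, Benjamini-Hochberg threshold 0.05, 2 residual degrees of freedom. This takes the ligated library to vary as much as the mock ones. CPM are scaled by the TMM library size, and ratios over mock 1 add 5 CPM to each value. DESeq2 1.42.0, other normalization, filters, gate limits, Scrublet (scanpy 1.11.5) doublets, and each mock library left out were alternatives. Scrublet called 0 doublets in mock 2 and mock 3, where it had not worked, so doublets stayed in the main cells. Shares carry 95% Clopper-Pearson intervals. The fit was tested on simulated data.

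Genes were named from a fixed panel, the 12 genes per direction with the smallest p outside the mock range at a mean of at least 20 CPM, up to 4 genes per list, and for class comparisons the 10 largest changes per direction. The cell rule, lists and tests were chosen with earlier results of these data known, and a few further genes were named after their values were seen. Gene positions are from GENCODE vM21 and promoters from RefSeq. Some genes of these lists are not reported here.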

Additional observations from a re-analysis of the deposited data

Results flagged for a closer look

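The class by surgery term passed for 25 named genes that were not out-of-class, so their difference between the ligated and mock libraries differed between CD8 T cells and NK cells (edgeR, adjusted p under 0.05). Values are CD8 minus NK on the log2 scale. There was 1 ligated library, and DESeq2 called 5 genes in all for this term.

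Among genes of T cell function the term was 4.94 for Gzma, 2.45 for Ccl3, 1.79 for Ccl4, 0.865 for Nkg7 and 1.35 for Sh2d2a, a T cell adaptor. It was −1.55 for Il7r, −1.63 for Satb1, −1.2 for the integrin gene Itgae and −2.2 for the chemokine receptor gene Cx3cr1. Il7r stood at 10.7 CPM in ligated NK cells against 25.2, 6.09 and 6.04 CPM. Cx3cr1 stood at 31.9 CPM in ligated NK cells against 1.60, 5.39 and 6.04 CPM.

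For Tox the term was 2.42, but Tox stood at 94.9 CPM in ligated NK cells and at 80.2, 635 and 635 CPM in mock 1, 2 and 3, so that mock 2 and 3 set the difference. Interferon-related genes were Ifitm1 (3.77) and Irf8 (2.23), and proliferation genes were Pclaf (2.75), Ube2c (2.91) and Top2a (1.43).

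The genes of antigen-presenting cells and macrophages were Cd74 (1.93), H2-Aa (2.27), H2-Ab1 (2.07), H2-Eb1 (2.15), C1qa (3.09), C1qb (2.24), C1qc (2.81) and Spp1 (2.92). The stromal genes were Sparc (−1.18) and Dcn (−1.03). The macrophage marker sum in CD8 T cells was highest in the ligated library, whereas the fibroblast sum was nearly as high in mock 2, and Dcn was higher in mock 2 (1371 CPM) than after ligation (418 CPM). The part of other cells' transcripts was not tested.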

How the results depend on the processing

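No paired analysis was possible because the ligated and mock groups share only replicate number 1. The count of genes differing between ligated and mock CD8 T cells was 10, and it was 232 with no low count filter, 168 with the counting version as a term, 5 with mock 2 and 3 summed, 5 and 20 with a Cd8 minimum of 1 and 3 UMIs, and 6 without Scrublet doublets. It was 63 in marker-filtered cells, 26 in them with the version term, and 18 without dividing cells, the latter chosen after seeing the data as were the version, DESeq2 and left-out-library fits on marker-filtered cells. Leaving out 1 mock library gave 0 to 826 over all cells and 10 to 842 in marker-filtered cells. With mock 2 left out 95 genes had an unadjusted p under 0.05. For these counts the cause was not tested. For T cells without Cd8 it was 304 with no filter and 51 to 110 with 1 mock library left out, and for NK cells 851 to 1241. The class by surgery count of 117 was 5 with DESeq2 and 50 to 200 with 1 mock library left out.

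The excess share of CD8 T cells (3.50 percentage points) was 3.63 with a Cd8 minimum of 1, 3.68 with at most 8% mitochondrial UMIs, 3.69 with at least 1000 UMIs and 3.69 after thinning. Among Cd3 cells (10.4 points) it was 18.1 after thinning. Of the 158 named genes Dcn alone reversed with a test past the threshold, from −0.44 to 11.4 with the version term, 5.42 in marker-filtered cells and 5.13 in these without mock 1. With the version term 24 of the 158 changed sign without passing, and 52 of the 63 genes called in marker-filtered cells kept their direction. Of 19 settings, Gzmk, Nkg7 and Isg15 passed under 4 each, Ccl5 under 5, Irf7 under 3, Ifi27l2a under 13 and Trgv2 under 8, with the direction kept in all 19. Depth limits the mock side, where a library rests on 35 to 70 CD8 T cells and 200038 to 380917 UMIs.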
